A study of Mus musculus with 9 samples.

Results

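The E2F transcription factors and the retinoblastoma proteins that bind them were followed through activation of mouse T cells with and without TRAIL (TNF-related apoptosis-inducing ligand). The 10 genes were taken by name from a table of 55487 genes: *E2f1*, *E2f2*, *E2f3*, *E2f4*, *E2f5*, *E2f7*, *E2f8*, *Rb1*, *Rbl1* and *Rbl2*. All 10 were present, and all 10 were among the 15536 genes that reached at least 1 TPM (transcripts per 1000000, a level already divided by transcript length) in at least 3 libraries.

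RNA was sequenced from CD4+ T cells that had been purified by negative selection from spleens of female wild-type (Trail-r+/+) C57BL/6 mice aged 6 to 7 weeks. There were 3 groups of 3 libraries. Control cells were kept in medium, and the time they spent in culture is not given in the sources used here. Stimulated cells received anti-CD3 Abs at 3 µg/ml and anti-CD28 Abs at 2 µg/ml for 24 h, and TRAIL-treated activated T cells received the same Abs together with TRAIL at 10 µg/ml. Each library was made from 1 µg of total RNA. The labels do not say whether replicates came from separate mice or cultures, so p-values measure the spread between these libraries only, which may be technical.

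E2F proteins bind DNA, mostly as dimers with a DP partner, and control genes for DNA replication and the cell cycle. In resting cells the pocket proteins pRB (*Rb1*), p107 (*Rbl1*) and p130 (*Rbl2*) sit on E2Fs and hold these genes down. Antigen receptor signalling in T cells raises cyclin-dependent kinases, which phosphorylate the pocket proteins and free the activator E2Fs. p130 is known as the pocket protein of quiescent cells, where it joins E2F4 and the MuvB core in the DREAM complex, and p107 is known from cycling cells.

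Several members are themselves known targets of E2F, so the reference sequence before their start sites was searched for short motifs. RefSeq windows of 300 bases (250 before to 50 after each start, GRCm38.p6) matched 7 of the 10 genes in 9 windows, and *E2f4*, *E2f5* and *Rb1* had no match. Letters of the E2F motif were searched as TTCCCGC, as its variant TTCGCGC, and further in the form TTGCCGC and the form TTGGCGC, and at least 1 of them was present on either strand in windows of 5 genes (*E2f2*, *E2f3*, *E2f7*, *E2f8* and *Rbl1*). The member windows with a match had a GC content of 54.7% to 75.3%, beside a median of 52.7% over all windows. Such letters, themselves rich in G and C, stood in 5 of the 9 member windows, beside 9.57% of all 32851 windows. The stretches that hold them are given 5′ to 3′ on the gene's own strand with the E2F letters in capitals, and so is that of *Rbl2*, which held none. Capitals also mark the CHR (cell cycle genes homology region) letters, either TTTGAA or the variant form TTTAAA, present in 27.6% of all windows. A match on the other strand appears in the capitals as its reverse complement.
E2f3, chr13:29986034-29986213, minus strand: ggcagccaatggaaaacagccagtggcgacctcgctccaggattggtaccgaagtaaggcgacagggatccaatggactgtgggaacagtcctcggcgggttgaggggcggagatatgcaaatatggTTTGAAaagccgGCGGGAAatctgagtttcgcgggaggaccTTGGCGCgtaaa
E2f7, chr10:110745209-110745438, plus strand: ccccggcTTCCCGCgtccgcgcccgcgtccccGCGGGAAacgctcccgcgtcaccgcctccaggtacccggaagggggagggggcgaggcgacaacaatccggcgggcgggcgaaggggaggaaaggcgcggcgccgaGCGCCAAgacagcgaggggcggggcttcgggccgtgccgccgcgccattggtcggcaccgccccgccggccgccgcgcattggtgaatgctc
E2f8, chr7:48881597-48881721, minus strand: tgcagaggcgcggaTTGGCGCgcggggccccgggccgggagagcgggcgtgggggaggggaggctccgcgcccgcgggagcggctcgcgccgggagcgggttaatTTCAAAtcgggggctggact
Rbl1, chr2:157204535-157204659, minus strand: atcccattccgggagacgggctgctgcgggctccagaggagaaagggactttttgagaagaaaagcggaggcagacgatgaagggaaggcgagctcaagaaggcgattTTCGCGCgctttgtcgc
E2f2, chr4:136172303-136172323, plus strand: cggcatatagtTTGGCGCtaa
Rbl2, chr8:91069847-91070056, plus strand: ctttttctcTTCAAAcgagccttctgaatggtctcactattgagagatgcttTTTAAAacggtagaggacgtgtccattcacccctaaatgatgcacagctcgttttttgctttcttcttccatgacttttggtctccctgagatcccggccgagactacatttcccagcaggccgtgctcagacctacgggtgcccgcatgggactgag
*E2f3* held E2F letters at positions -11 to -5 and 19 to 25, counted from 1 at the RefSeq start, with CHR letters at -23 to -18. The *E2f7* stretch held 3 E2F matches, the first at -223 to -217. In *E2f8* an E2F match at -111 to -105 overlapped a CCAAT box (CCAAT, either strand, in 37.4% of all windows) on the other strand, and a CHR match lay at -20 to -15. The *Rbl1* match lay at -17 to -11. The *E2f2* match lay at 41 to 47, downstream of a RefSeq start that is 120 bases before the start of the gene in the table. A further *E2f2* window held CHR letters at -31 to -26 and 3 CCAAT boxes but no E2F letters. *Rbl2* had CHR letters at -201 to -196 and at -158 to -153. The RefSeq start listed for *E2f1* lay 466 bases inside the gene as the table has it, and its window held no match. These matches describe letters only, since no binding was measured.

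Levels of several members in stimulated cells differed from those in medium or with TRAIL. After stimulation *E2f1* and *E2f3* rose and *E2f2*, *Rb1* and *Rbl2* fell, and in the presence of TRAIL *E2f1*, *E2f3* and *E2f4* were lower and *Rbl2* was higher than in cells given the Abs alone. Calls needed both a limma p under 0.05 after Benjamini-Hochberg adjustment and a difference of at least 1 on the log2(TPM + 1) scale, which understates the change of low genes. On that rule 5 of 10 members were called between stimulated and medium cells (2 higher and 3 lower), where 31.9% of all genes tested were called (12.4% higher and 19.5% lower). Between TRAIL-treated and stimulated cells 4 of 10 were called (1 higher and 3 lower) beside 30.9% of all genes (16.6% higher and 14.3% lower). Between TRAIL-treated and medium cells limma called 0 of 10 beside 4.62% of all genes (2.49% higher and 2.13% lower), although 6 members had an unadjusted p under 0.05, as did 44% of all genes. On the adjusted p alone, 7 members passed between stimulated and medium cells (68.7% of all genes), 8 between TRAIL-treated and stimulated cells (67.1%) and 5 between TRAIL-treated and medium cells (32.6%), all 5 of them lower (24.6%). These comparisons share groups and are not independent of each other.

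**Figure D1:**
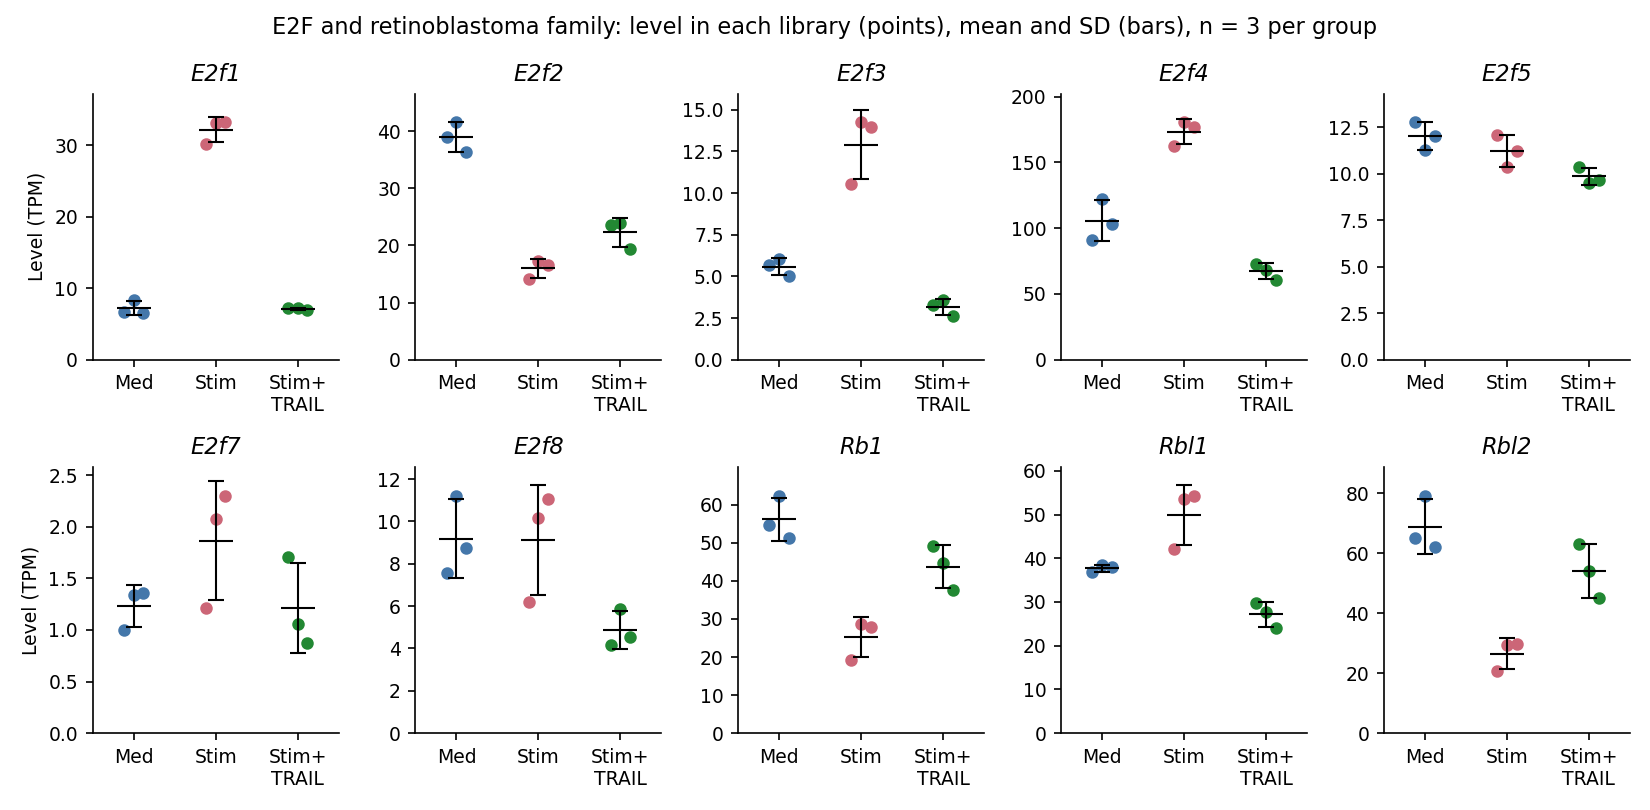
TPM of the 10 members in each library, one panel per gene, with the mean and SD of 3 libraries per group and a linear axis from 0. *E2f1* lay between 30.2 and 33.3 TPM in stimulated cells and at 8.42 TPM or less in all 6 other libraries, while *Rbl2* was at 29.7 TPM or less in stimulated cells and at 44.9 TPM or more elsewhere.

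Among the activator E2Fs, *E2f1* (ENSMUSG00000027490, chr2:154559407-154569892, minus strand, GRCm38), which drives entry into S phase, had 6.72, 8.42 and 6.54 TPM in medium, 30.2, 33.1 and 33.3 TPM after stimulation and 7.20, 7.18 and 6.91 TPM with TRAIL. The stimulated libraries stood above all others, and the TRAIL libraries lay within the range of the medium libraries. The difference between stimulated and medium cells was 2.02 on the log2 scale (SE 0.114, adjusted p = 1.31e-07), a 4.46-fold ratio of mean TPM. With TRAIL it fell by 2.04 from the stimulated level (SE 0.114, adjusted p = 1.41e-07). TRAIL-treated and medium cells differed by -0.02, with a 95% interval from -0.27 to 0.24 and an adjusted p of 0.933, and the sign of this small difference changed with the scaling of the libraries.

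*E2f3* (ENSMUSG00000016477, chr13:29906575-29986063, minus strand), a further activator, went the same way from a lower level. It had 5.71, 6.02 and 5.03 TPM in medium, 10.5, 14.3 and 13.9 TPM after stimulation and 3.28, 3.56 and 2.61 TPM with TRAIL. No group overlapped another. Its log2 difference was 1.07 (SE 0.148, adjusted p = 9.78e-05) between stimulated and medium cells and -1.74 (SE 0.148, adjusted p = 2.8e-06) between TRAIL-treated and stimulated cells. The first call was marginal, at 0.998 without stimulated replicate 2 and 0.754 with a pseudocount of 5. TRAIL-treated cells were also below medium, by -0.67 (adjusted p = 0.00756), which is under the fold threshold.

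*E2f2* (ENSMUSG00000018983, chr4:136172394-136196057, plus strand), the activator known for restraining proliferation of T cells in mice, ran opposite to the other activators in both comparisons with stimulated cells. It had 38.9, 41.6 and 36.4 TPM in medium, 14.1, 17.2 and 16.6 TPM after stimulation and 23.5, 24.0 and 19.4 TPM with TRAIL. The medium libraries were highest, the stimulated ones lowest, and no groups overlapped. It fell by 1.24 after stimulation (SE 0.119, adjusted p = 6.74e-06), and TRAIL-treated cells were 0.46 above stimulated cells (SE 0.119, adjusted p = 0.0063) and differed by -0.78 from medium (adjusted p = 0.00118), both short of the fold threshold.

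*E2f4* (ENSMUSG00000014859, chr8:105297663-105305370, plus strand), a repressor E2F that works with pocket proteins, was the highest member by mean TPM in every group. It had 91.2, 122 and 103 TPM in medium, 162, 181 and 177 TPM after stimulation and 72.9, 67.9 and 60.9 TPM with TRAIL. The groups did not overlap, although in TRAIL-treated cells its range overlapped that of *Rbl2*, the next in order. Stimulated cells were 0.72 above medium (SE 0.12, adjusted p = 0.000372), below the fold threshold. With TRAIL it fell by 1.36 from the stimulated level (SE 0.12, adjusted p = 3.77e-06), and TRAIL-treated and medium cells differed by -0.64 (adjusted p = 0.00358).

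*E2f5* (ENSMUSG00000027552, chr3:14578641-14606309, plus strand), the other repressor E2F, was the flattest member. Its means were 12.03 ± 0.747, 11.2 ± 0.873 and 9.85 ± 0.449 TPM (SD, n = 3) across medium, Abs alone and Abs with TRAIL. The stimulated range overlapped both others. Its log2 difference was -0.09 (95% interval -0.33 to 0.14) after stimulation and -0.17 (-0.40 to 0.07) between TRAIL-treated and stimulated cells. TRAIL-treated libraries lay below the medium libraries without overlap, at -0.26 (-0.50 to -0.03), with an adjusted p of 0.0804. The 3′ end of the gene overlaps *1810022K09Rik* on the other strand, which had 68.7, 162 and 57.6 TPM in the 3 groups, and since no source used here states whether counting used strand, reads of the overlap cannot be told apart.

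The atypical E2Fs, *E2f7* and *E2f8*, bind DNA without a DP partner and repress E2F target genes. *E2f7* (ENSMUSG00000020185, chr10:110745439-110787384, plus strand) was the lowest member in every group, with 1.23 ± 0.201 TPM in medium, 1.86 ± 0.577 TPM after stimulation and 1.21 ± 0.440 TPM with TRAIL (SD, n = 3). All groups overlapped, and the log2 differences were 0.34 (adjusted p = 0.137) and -0.37 (adjusted p = 0.113), with intervals from -0.09 to 0.77 and from -0.80 to 0.06. TPM tables keep no read totals, so the number of reads behind values this low is unknown.

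*E2f8* (ENSMUSG00000046179, chr7:48866429-48881596, minus strand) had 7.58, 11.2 and 8.76 TPM in medium, 6.19, 10.2 and 11.1 TPM after stimulation and 4.17, 5.86 and 4.56 TPM with TRAIL. Medium and stimulated libraries overlapped across most of their range, and the TRAIL libraries lay below both. The log2 difference was -0.03 (95% interval -0.50 to 0.45) between stimulated and medium cells, and its sign changed with the scaling. TRAIL-treated cells differed by -0.77 from stimulated cells (SE 0.214, adjusted p = 0.00907) and by -0.79 from medium (adjusted p = 0.0188), both under the fold threshold.

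**Figure D2:**
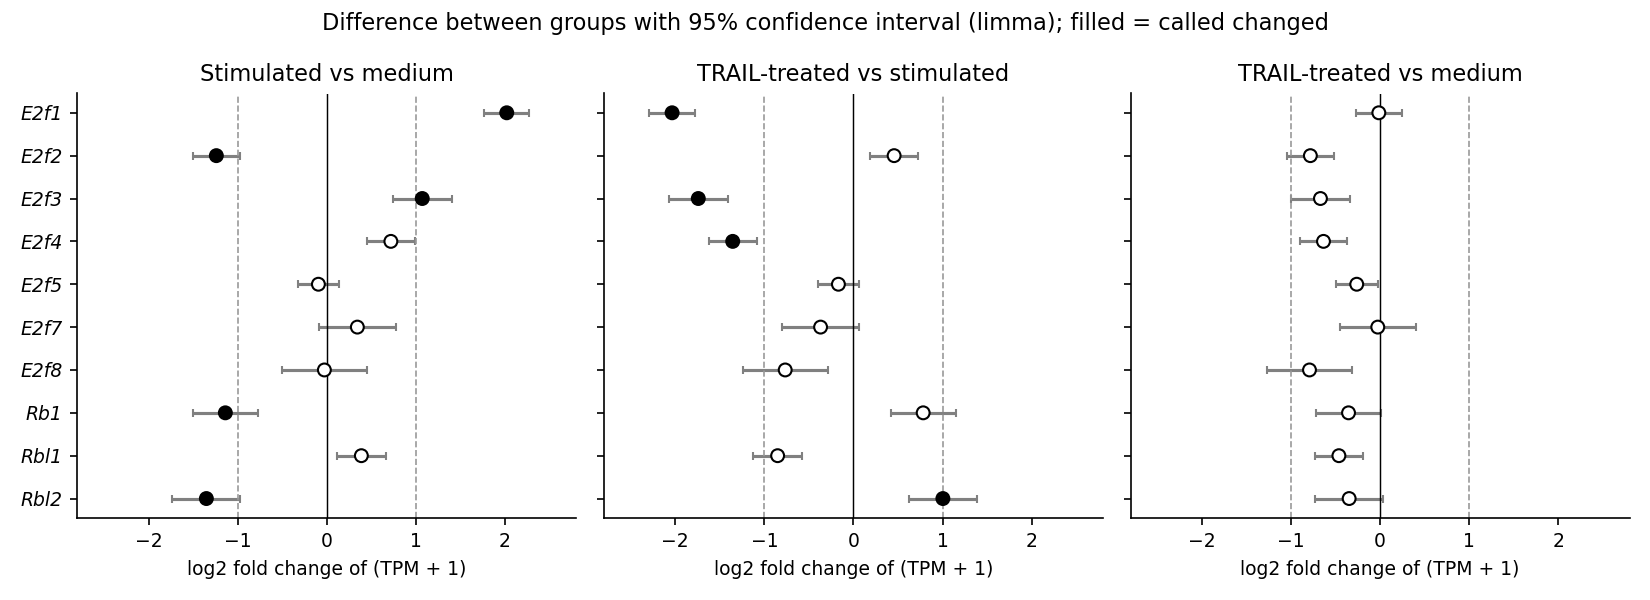
Log2 differences of the 10 members on the log2(TPM + 1) scale with 95% intervals from limma, for the 3 comparisons, with dashed lines at the fold threshold. *E2f1* lies at 2.02 and -2.04 in the comparisons with stimulated cells and at -0.02 between TRAIL-treated and medium cells, and *Rbl2* lies at -1.35 and 1.00.

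Among the pocket proteins, *Rbl2* (ENSMUSG00000031666, chr8:91070057-91123844, plus strand), which encodes p130, had 65.0, 79.2 and 62.1 TPM in medium, 20.6, 29.3 and 29.7 TPM after stimulation and 62.9, 54.2 and 44.9 TPM with TRAIL. The stimulated libraries were below all others, and 1 TRAIL library lay within the medium range. It fell by 1.35 after stimulation (SE 0.17, adjusted p = 5.11e-05). TRAIL-treated cells were 1.00 above stimulated cells (SE 0.17, adjusted p = 0.000432), a 2.04-fold ratio of mean TPM, and -0.35 from medium (adjusted p = 0.144). The TRAIL call rested on the fold threshold: the difference was 0.838 without stimulated replicate 1, 0.888 without TRAIL replicate 1, 0.994 without TRAIL replicate 2, 0.988 with median-of-ratios scaling and 0.906 with a pseudocount of 5. *Aktip*, on the opposite strand and touching exons of *Rbl2*, had mean TPM of 21.2, 14.4 and 12.6 across medium, Abs alone and Abs with TRAIL, its lowest mean being with TRAIL.

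*Rb1* (ENSMUSG00000022105, chr14:73183673-73325822, minus strand), which encodes pRB, had 54.8, 62.4 and 51.2 TPM in medium, 19.2, 28.7 and 27.9 TPM after stimulation and 49.1, 44.6 and 37.6 TPM with TRAIL. The groups did not overlap, with medium highest and stimulated lowest. It fell by 1.14 after stimulation (SE 0.164, adjusted p = 0.000131), and this call was lost at -0.957 without stimulated replicate 1 and at -0.955 with median-of-ratios scaling. TRAIL-treated cells were 0.78 above stimulated cells (SE 0.164, adjusted p = 0.00168) and -0.36 from medium (adjusted p = 0.122). *Rcbtb2* and *Lpar6*, likewise on the opposite strand and touching exons of *Rb1*, were also lowest in stimulated cells, with mean TPM of 41.6, 12.8 and 34.2 and of 14.1, 0.934 and 10.4 for the 3 groups in that order.

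*Rbl1* (ENSMUSG00000027641, chr2:157145893-157204534, minus strand), which encodes p107, ran opposite to the other pocket proteins in both comparisons with stimulated cells. It had 36.8, 38.4 and 37.9 TPM in medium, 42.1, 53.5 and 54.3 TPM after stimulation and 29.7, 27.8 and 24.0 TPM with TRAIL. Stimulated libraries were highest, TRAIL libraries lowest, and no groups overlapped. None of its differences reached the fold threshold: 0.39 (SE 0.122, adjusted p = 0.0164) between stimulated and medium cells, -0.85 (SE 0.122, adjusted p = 0.000131) between TRAIL-treated and stimulated cells, and -0.46 (adjusted p = 0.017) between TRAIL-treated and medium cells.

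Counted over the members, the libraries of stimulated and medium cells did not overlap for 7 of 10 genes, beside 72.6% of all genes tested. For TRAIL-treated against stimulated cells the number was 8 of 10, beside 70.4%. For TRAIL-treated against medium cells it was 7 of 10, beside 50.6%, and all 7 were lower with TRAIL, beside 38.2% of all genes. With 3 libraries per group an exact permutation test of a single gene cannot give a p below 0.1. Within their groups, stimulated replicate 1 had the lowest value in 9 of the 10 members, TRAIL replicate 3 had the lowest in 8, medium replicate 2 had the highest in 8 and TRAIL replicate 1 had the highest in 7. Stimulated replicate 1 also had the fewest genes at 1 TPM or more, 13691 beside 13953 to 14909 in the other libraries.

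Since the members share a scale per length, their levels can be set beside each other within a library. The E2F members summed to 179.8 ± 19.9 TPM in medium, 256.6 ± 17.3 TPM after stimulation and 115.7 ± 9.55 TPM with TRAIL (SD, n = 3). This sum, called E2F TPM below, leaves out *E2f6*, which is not among the members. The mean pocket protein sum was lowest in the stimulated group, whose libraries overlapped those with TRAIL, at 162.6 ± 15.3, 101.8 ± 17.3 and 125 ± 17.6 TPM in the same order. The ratio of pocket protein to E2F TPM was 0.906 ± 0.0434 in medium, 0.395 ± 0.0425 in stimulated cells and 1.08 ± 0.0688 in TRAIL-treated cells.

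*E2f2* made up 21.8% ± 1.72 of E2F TPM in medium, 6.22% ± 0.233 after stimulation and 19.2% ± 0.823 with TRAIL, and *E2f1* made up 4.01% ± 0.211, 12.6% ± 0.204 and 6.16% ± 0.384. The leading activator transcript was *E2f2* in medium and with TRAIL, and *E2f1* after stimulation. *E2f4* held 58.6% ± 2.56, 67.6% ± 0.944 and 58.1% ± 1.06. Among pocket proteins *Rbl1* held 23.3% ± 1.88, 49.3% ± 1.82 and 21.8% ± 0.78, while *Rbl2* held 42.2% ± 1.6, 26.0% ± 0.688 and 43.1% ± 1.15 (SD, n = 3 throughout). *Rbl2* led the pocket transcripts in medium and with TRAIL and *Rbl1* led them after stimulation.

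**Figure D3:**
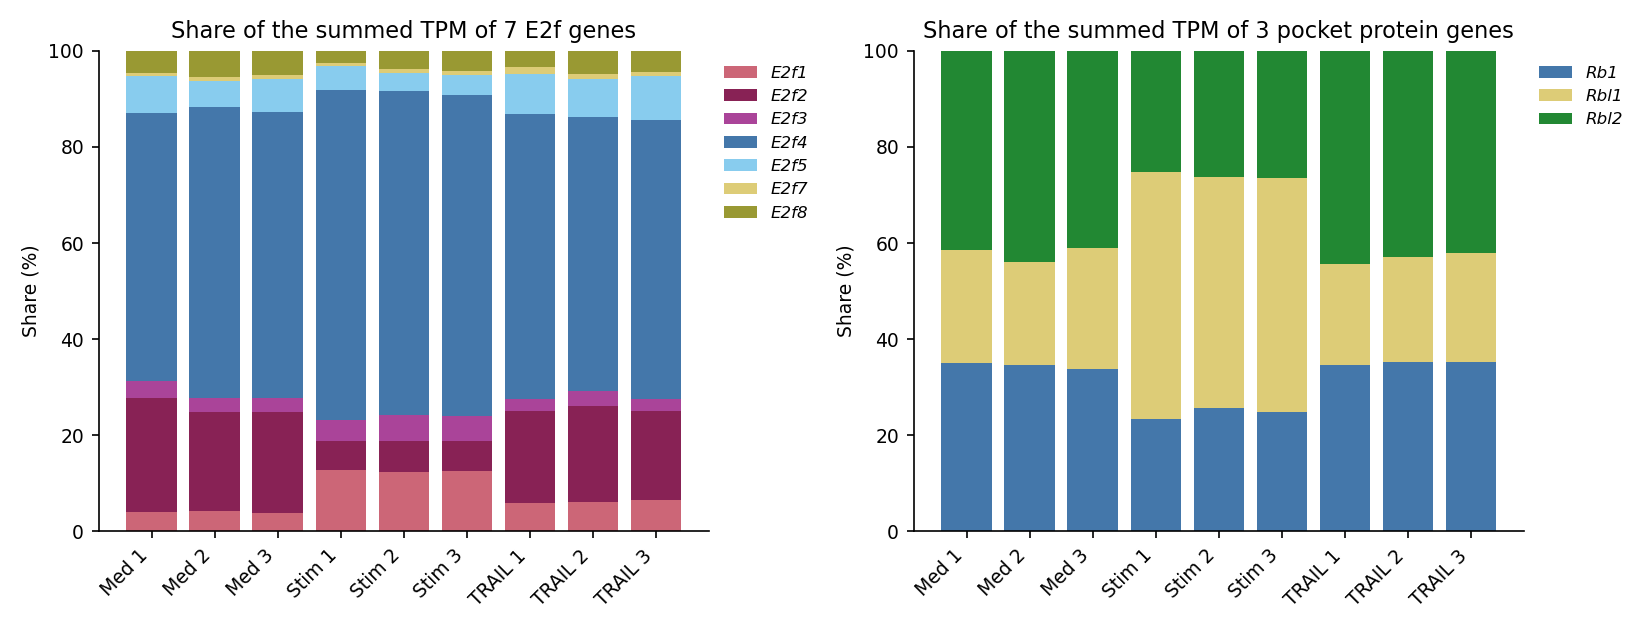
Share of summed E2F TPM (without *E2f6*) and of summed pocket protein TPM held by each member, in percent, with 1 stacked bar per library. *Rbl1* takes a mean of 49.3% of pocket protein TPM in stimulated cells beside 23.3% in medium and 21.8% with TRAIL, and *E2f1* takes a mean of 12.6% of E2F TPM in stimulated cells beside 4.01% and 6.16%.

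The log2 ratio of *Rbl1* to *Rbl2*, which does not depend on how libraries are scaled, was -0.859 ± 0.171 in medium, 0.923 ± 0.0898 after stimulation and -0.983 ± 0.0902 with TRAIL. The difference was 1.78 between stimulated and medium cells and -1.91 between TRAIL-treated and stimulated cells, each with a two-sided exact permutation p of 0.1, the smallest that 3 against 3 libraries allow (0.15 after Benjamini-Hochberg adjustment over 6 ratio tests). TRAIL-treated and medium cells differed by -0.124 (exact p = 0.3, adjusted 0.36). The log2 ratio of summed *E2f1* to *E2f3* over *E2f4* and *E2f5* was -1.18 ± 0.139, -1.60 ± 0.0612 and -1.25 ± 0.075 in the 3 groups and was lowest in the stimulated libraries, where *E2f1* was highest. The differences were -0.419 between stimulated and medium cells and 0.352 between TRAIL-treated and stimulated cells (exact p = 0.1, adjusted 0.15), and -0.0677 between TRAIL-treated and medium cells (exact p = 0.5, adjusted 0.5).

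Transcripts of other cell types changed with the same groups as these genes. Summed over 6 B cell markers, TPM ranged from 5586 to 6159 in medium, from 660.6 to 712.7 after stimulation and from 2849 to 3290 with TRAIL. The corresponding ranges were 1795 to 2092, 43.47 to 61.6 and 1315 to 1540 for 9 myeloid markers, 2101 to 2555, 26.35 to 41.32 and 616.7 to 666.5 for 8 erythroid markers, and 96.03 to 126.4, 9.195 to 12.17 and 28.99 to 31.16 for 4 NK cell markers. All 27 of these markers fell after stimulation (19.5% of all genes) and 25 of 27 were called higher with TRAIL than after stimulation alone (16.6%), while 16 of 27 were called lower with TRAIL than in medium (2.13%). The 16 were 5 of 6 B cell, 7 of 8 erythroid and 4 of 4 NK cell markers. Of the 9 myeloid markers 0 were called there, beside 4.62% of all genes, with a median log2 difference of -0.07. By their ranges the 4 sums were highest in medium and lowest after stimulation, the order of mean TPM that *E2f2*, *Rb1* and *Rbl2* also had. The 7 T cell markers were all detected and summed to between 2898 and 3263 TPM in every library, but not all were level: after stimulation *Cd2* rose by 1.09 on the log2 scale, *Cd3g* fell by 1.04 and *Cd4* stood at 220 TPM beside 384 in medium, a difference of -0.81 that is under the fold threshold. Between TRAIL-treated and stimulated cells 0 of the 7 were called, beside 30.9% of all genes, with 6 at an unadjusted p under 0.05, beside 69.9%. On the adjusted p alone 4 of them were higher and 1 lower, where 67.1% of all genes passed in either direction. The differences of *Cd3g* at 0.99, *Cd2* at -0.91 and *Cd4* at 0.81 lay under the fold threshold. CD8 markers summed to 94.21 to 117.8 TPM in medium and stimulated cells and to 46.9 to 49.38 TPM with TRAIL. The part of other cells in the values of the E2F and pocket protein genes was not tested, and in bulk RNA fewer cells of a type and less RNA per cell cannot be told apart.

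Of the E2F partners, *Tfdp1*, which encodes the DP1 subunit of E2F dimers, had 51.7 ± 4.7 TPM in medium, 205 ± 3.58 TPM after stimulation and 40.4 ± 4.43 TPM with TRAIL (SD, n = 3). It rose by 1.97 on the log2 scale after stimulation (adjusted p = 8.43e-08) and fell by 2.32 with TRAIL (adjusted p = 3.09e-08). *Tfdp2*, which encodes DP2, was not called, at 18.8, 10.6 and 12.3 TPM. *E2f6*, an E2F that represses without pocket proteins, had 16.5 ± 1.06, 32.9 ± 1.07 and 11.4 ± 1.32 TPM, and fell by 1.45 with TRAIL relative to stimulated cells (adjusted p = 1.11e-06). Of these 3 genes 1 was called higher after stimulation, beside 12.4% of all genes, and 2 lower with TRAIL, beside 14.3%. Under median-of-ratios scaling or quantile normalization 2 were called higher after stimulation, since *E2f6* lay just under the threshold at 0.96.

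Among 8 genes of the MuvB core and its partners, 1 was called higher after stimulation (12.4% of all genes) and 1 lower with TRAIL (14.3%), in both cases *Mybl2*, the B-Myb that joins MuvB in cycling cells. It had 5.32 ± 0.451 TPM in medium, 26.4 ± 4.34 TPM after stimulation and 4.02 ± 0.543 TPM with TRAIL, and changed by 2.102 (adjusted p = 5.94e-07) and -2.44 (adjusted p = 2.23e-07). The MuvB core genes *Lin9*, *Lin37*, *Lin52* and *Lin54* were not called, and *Lin9* had 20.9, 13.1 and 19.1 TPM. The histone-binding gene *Rbbp4* lay just short of a call with TRAIL, at -0.98, and the count of lower calls was 2 without stimulated replicate 2 or 3 or TRAIL replicate 1 or 2. *Foxm1*, the later MuvB partner, had 7.73, 7.28 and 7.08 TPM.

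Among 24 G1/S genes known as E2F targets, 19 rose and 0 fell after stimulation, beside 12.4% and 19.5% of all genes, with a median log2 difference of 1.66 beside -0.151 over all genes tested. With TRAIL 21 of 24 fell relative to stimulated cells and 0 rose, beside 14.3% and 16.6%, with a median of -1.76 beside 0.011. Between TRAIL-treated and medium cells 0 of 24 were called by limma, beside 4.62% of all genes, with a median of -0.22 beside -0.182, although 13 had an unadjusted p under 0.05, beside 44% of all genes. On the adjusted p alone 4 were higher and 6 lower, beside 8.03% and 24.6% of all genes. *Uhrf1*, which guides maintenance DNA methylation, had 23.7, 140 and 16.6 TPM and the replication helicase gene *Mcm3* had 44.7, 232 and 36.2 TPM across medium, Abs alone and Abs with TRAIL.

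Of 16 G2/M genes known as DREAM targets, 0 were called higher and 1 lower after stimulation, *Ccnb2*, a mitotic cyclin gene (17.1, 7.80 and 10.8 TPM in the 3 groups), beside 12.4% and 19.5% of all genes, with a median log2 difference of 0.06 beside -0.151. On the adjusted p alone 6 were higher and 1 lower, where 68.7% of all genes passed in either direction. Under median-of-ratios scaling or quantile normalization 2 were called higher and 0 lower, 1 was called higher without medium replicate 1 or 3 or stimulated replicate 1, and with a pseudocount of 5 none was called. With TRAIL 6 of 16 fell relative to stimulated cells, beside 14.3% of all genes, with a median of -0.41 beside 0.011, and with a pseudocount of 5 the number was 2. The largest of these differences were in *Top2a*, which encodes a topoisomerase (55.6, 109 and 37.95 TPM), and the mitotic kinase gene *Aurkb* (13.1, 23.2 and 7.82 TPM). Between TRAIL-treated and medium cells limma called 0 of 16, beside 4.62% of all genes, with 13 at an unadjusted p under 0.05, beside 44%, and a median of -0.45 beside -0.182. On the adjusted p alone 0 were higher and 7 lower there (8.03% and 24.6% of all genes). Between TRAIL-treated and stimulated cells 1 was higher and 10 lower on that measure, where 67.1% of all genes passed in either direction.

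**Figure D4:**
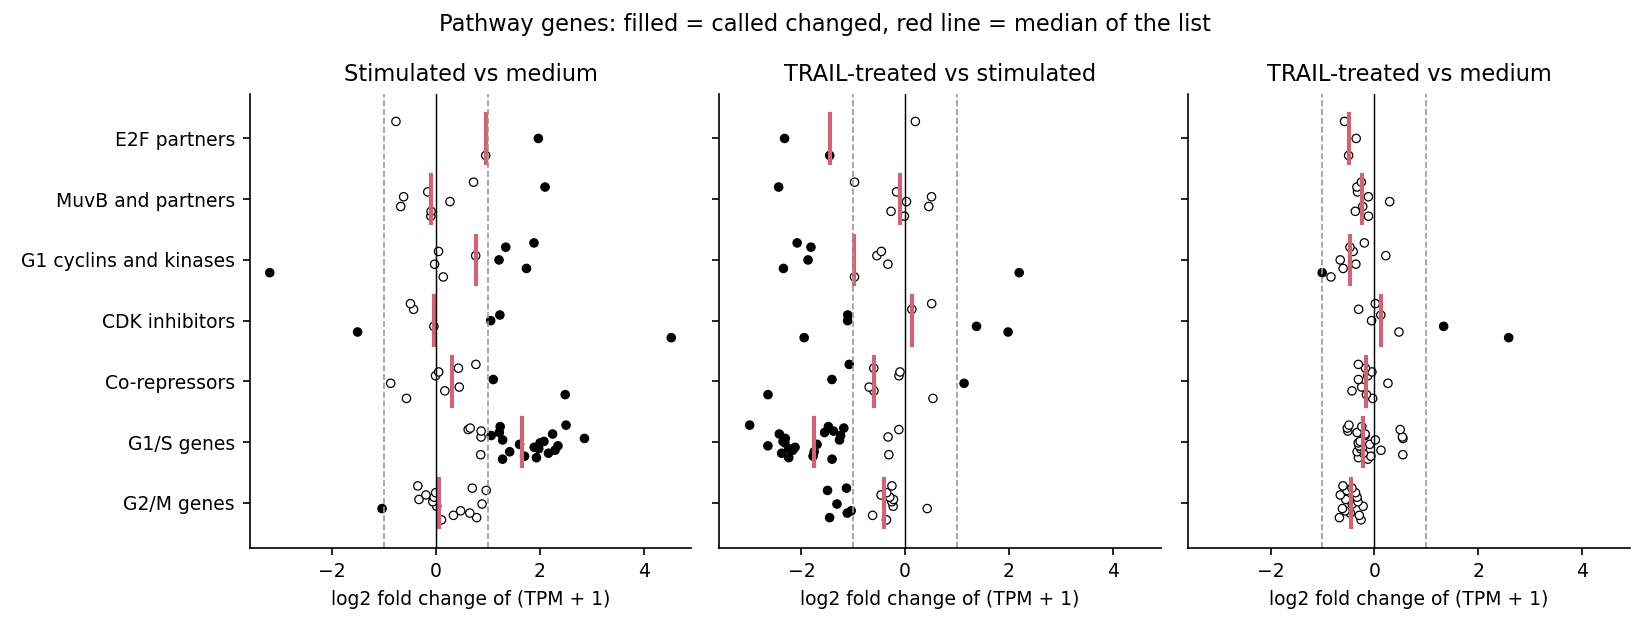
Log2 differences on the log2(TPM + 1) scale of every tested gene in 7 lists around the E2F and pocket protein genes, one panel per comparison, with the list median as a red line, filled points for called genes and dashed lines at the fold threshold. The 24 G1/S genes have a median of 1.66 after stimulation, -1.76 between TRAIL-treated and stimulated cells and -0.22 between TRAIL-treated and medium cells, while the 16 G2/M genes have medians of 0.06, -0.41 and -0.45.

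Of 9 G1 cyclins and kinases, which act on pocket proteins, 4 rose and 1 fell after stimulation (12.4% and 19.5% of all genes), and with TRAIL 4 fell and 1 rose relative to stimulated cells (14.3% and 16.6%), with medians of 0.77 and -0.98. Between TRAIL-treated and medium cells 1 was called lower (2.13%), *Ccnd1* at the threshold, and 7 of 9 were lower on the adjusted p alone (24.6%), with a median of -0.47 beside -0.182. The *Ccnd1* call was lost with a pseudocount of 5, under median-of-ratios scaling or quantile normalization, and without medium replicate 1 or 2 or TRAIL replicate 1 or 3. *Ccnd2*, the cyclin D2 gene, had 141, 483 and 93.2 TPM across medium, Abs alone and Abs with TRAIL, and its kinase partner *Cdk6* had 13.5, 55.6 and 11.8 TPM. *Ccnd1*, the cyclin D1 gene, ran the other way with 13.8, 0.606 and 6.36 TPM. Cyclin E1 (*Ccne1*) had 11.7, 28.5 and 7.07 TPM.

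CDK inhibitors moved both ways: of 7 genes, 3 rose and 1 fell after stimulation (12.4% and 19.5% of all genes), and 2 rose and 3 fell with TRAIL relative to stimulated cells (16.6% and 14.3%), with medians of -0.04 and 0.13. The inhibitor genes *Cdkn2a* and *Cdkn2b*, among the 3 that rose and the 3 that fell, reached 1 TPM only in stimulated libraries and so entered the test through the group where they are high, which makes the counts of this list no support for a direction. With a pseudocount of 5, 1 gene was called in each direction in both comparisons. Between TRAIL-treated and medium cells 2 were called higher and 0 lower (2.49% and 2.13%). *Cdkn1b*, the p27 gene of quiescent cells, had 177 ± 6.62 TPM in medium, 61.7 ± 3.58 TPM after stimulation and 247 ± 1.98 TPM with TRAIL. *Cdkn1a*, the p21 gene, had 1.76, 63.0 and 15.8 TPM, and was still 2.59 above medium with TRAIL (adjusted p = 1.93e-06). *Cdkn1c*, the p57 gene, had 1.44, 1.37 and 5.13 TPM and was called higher with TRAIL against both other groups. With a pseudocount of 5 both calls were lost, at 0.67 against stimulated cells and 0.65 against medium. Among 10 co-repressors of pocket proteins 2 rose after stimulation (12.4% of all genes), and 3 fell and 1 rose with TRAIL relative to stimulated cells (14.3% and 16.6%), with medians of 0.30 and -0.60. After stimulation 1 rose under quantile normalization, and 1 also fell without stimulated replicate 2. The higher call with TRAIL, in *Kdm5a*, was lost without stimulated replicate 1. *Ezh2*, the histone methyltransferase gene of a Polycomb complex, had 49.9, 286 and 44.8 TPM, and *Kdm5a*, a histone demethylase gene, had 61.2, 33.6 and 73.5 TPM.

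Profiles over the 9 libraries were compared by the root-mean-square distance between centred log2(TPM + 1) values. Among the members *Rb1* and *Rbl2* were the nearest pair, at 0.109, followed by *E2f2* and *Rb1* at 0.205 and *E2f3* and *E2f4* at 0.215. Of 15535 other genes tested, the nearest to *E2f1* was *Pgm1* at 0.078, then *Zmynd19* at 0.079 and *Prnp* at 0.083. The nearest to *Rbl1* were *Tmpo* at 0.044 and *Ahcyl1* at 0.045, and the nearest to *Rbl2* were *Laptm5* at 0.062 and *Zfp652* at 0.063. *E2f8* had no profile so near, its closest being *Zfp966* at 0.156. The distances are descriptions over the same 9 libraries and say nothing of shared function.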

How the data were processed

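Per the submitters' processing notes, reads were handled with Trimmomatic 0.36, HISAT2 2.1.0, SAMtools 1.2, StringTie 2.1.2 and DESeq2. The authors deposited 1 table of TPM for all 9 libraries. The notes name a human build (GRCh38) and the study's methods a mouse build, and the loci of all 10 members match GENCODE M21 (GRCm38). TPM sums to 1000000 in each library and keeps no read totals, so the depth behind a value is unknown.

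Here log2(TPM + 1) was fitted with limma 3.58.1 in R 4.3.3 (eBayes with a trend), with all libraries in one fit, keeping genes that reached 1 TPM in 3 or more libraries, and p-values were Benjamini-Hochberg adjusted over all genes tested. The fit was tested on simulated data in which few genes changed, all by more than the fold threshold. That test says nothing of calls near the threshold. Ratios used exact permutation tests. All members were described, and every E2F partner and MuvB gene could be named, with up to 4 genes of each other list, those with the largest called change between TRAIL-treated and stimulated cells. *Ccnb2*, *Cdkn2b*, *Cd2*, *Cd3g* and *Cd4* were named after their values were seen. The members and lists were chosen with earlier results of these data known. Alternatives were other pseudocounts, filters, scalings and fits, a replicate block and leaving out each library. Within-group correlation was at least 0.9934. Tables and figures used Python 3.11.15, pandas 2.3.3 and matplotlib 3.10.9.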

Additional observations from a re-analysis of the deposited data

How the results depend on the processing

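The direction of the called members held under every alternative, and calls near the fold threshold were lost for *E2f3*, *Rb1* and *Rbl2*, as given with their values above. On adjusted p alone, 8 members passed between TRAIL-treated and stimulated cells and 5 between TRAIL-treated and medium cells, and over all genes 10678 passed between stimulated and medium cells, 10420 between TRAIL-treated and stimulated cells and 5063 between TRAIL-treated and medium cells. With a pseudocount of 5 the calls over all genes were 2946, 2883 and 332 in the same order, and with 0.1 those between TRAIL-treated and medium cells were 1167. Leaving out 1 library at a time gave 4 to 5, 3 to 4 and 0 called members.

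Median-of-ratios scaling moved the median of all genes by 0.166 between stimulated and medium cells and by 0.15 between TRAIL-treated and medium cells, and quantile normalization by 0.19 and 0.139. Small uncalled differences then changed sign, to 0.079 and 0.148 for *E2f5* and 0.14 and 0.243 for *E2f8* between stimulated and medium cells, and to 0.134 and 0.183 for *E2f1* and 0.061 and 0.066 for *E2f7* between TRAIL-treated and medium cells. Leaving out 1 library gave -0.169 to 0.204 for *E2f8* between stimulated and medium cells, -0.075 to 0.086 for *E2f1* and -0.181 to 0.086 for *E2f7* between TRAIL-treated and medium cells, and -0.111 to 0.013 for the activator to repressor ratio there. The cause was not tested. A filter of 5 TPM removed *E2f7*.

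With the replicate number as a block the called members stayed at 5, 4 and 0, and the block changed no call of any single member. Whether the numbers pair the libraries cannot be settled with 3 libraries per group. Over 9 same-number pairs the correlation of deviations ran from -0.306 to 0.295, with 3 over 0.1, and 4 of 9 libraries correlated best with their own number.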
